A study of Mus musculus with 32 samples.

Results

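Ephrins and Eph receptors were followed in mouse presomitic mesoderm (PSM) made in culture, the tissue whose segmentation clock times the formation of somites. The genes were chosen by symbol as 3 ephrin ligands (Efna1, Efnb1 and Efnb2) and 7 Eph receptors (Epha1, Epha2, Epha4, Epha5, Epha7, Ephb2 and Ephb3), 10 of the 21886 genes in the table of read counts. All 10 passed the expression filter of 1 CPM (a count scaled to the size of its library) in at least 16 libraries, so none was too low to judge. The cells were epiblast stem cells of 1 line (AES0204) carrying a luciferase reporter of Hes7, a repressor at the core of the clock. The cells of both experiments received 20 ng/ml of the growth factor bFGF, 10 µM of the Wnt pathway activator CHIR99021, 250 nM of the BMP receptor inhibitor LDN193189 and 10 µM of the TGF-β receptor inhibitor SB431542, and after 30 h a medium with CHIR99021 lowered to 1 µM. The treatment protocol also lists bFGF at 10 ng/ml. Ex5 and Ex4 are separate time courses of 16 samples each, without an untreated group. Ex5 was sampled from 165 to 425 min and Ex4 from 155 to 405 min, as labelled, with 1 RNA-seq library per time.

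Eph receptors are receptor tyrosine kinases, and their ephrin ligands sit on the membrane of neighbouring cells, so the pair signals on contact and in both directions. Ephrin-A ligands are held by a lipid anchor and bind mostly EphA receptors, while ephrin-B ligands cross the membrane and bind mostly EphB receptors. EphA4 binds both kinds. The family is known for repulsion and for keeping cell groups apart, and in the vertebrate embryo it acts at the boundary where a somite separates from the PSM.

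Counts assigned to genes were 16132024 to 28586704 per library in Ex5 and 19257945 to 29528175 in Ex4, and 11772 genes were tested. The defining PSM markers were present, with 10 of 10 past the filter and a summed level of 3670 to 4307 CPM in Ex5 and 3059 to 3757 CPM in Ex4. Of 6 epiblast markers 4 averaged under 1 CPM (Nanog, Fgf5, Otx2 and Utf1), as did 4 of 6 somite markers (Mesp2, Ripply2, Tcf15 and Uncx), 3 of 4 endoderm markers, 5 of 6 endothelial and lateral mesoderm markers and 1 of 6 neural markers. The other epiblast markers were present, with Pou5f1 averaging 47.9 CPM and Cdh1 60.7 CPM. So were the neural markers Nes (414 CPM), Irx3 (22.4 CPM), Sox2 (20.5 CPM) and Pax6 (11.7 CPM), while Sox1 averaged 2.20 CPM. The endoderm gene Cer1 had a median of 0 CPM in both experiments. The clock phase was taken from Hes7, which peaked at fitted times of 237 and 372 min in Ex5 and 212 and 347 min in Ex4, with a common period of 135 min (95% interval 129 to 141 min). Each time has 1 library per experiment, so errors were estimated from deviations around fitted curves, and p-values measure only the spread between libraries of a course, which may be technical. In bulk samples, fewer cells of a type and less RNA per cell cannot be told apart.

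The first comparison asked which of these genes cycle with Hes7. Efna1, Epha2 and Efnb1 did, and the other 7 did not pass the test. The 250 bases before the transcript starts of these 3 genes are shown because they are the members that moved with the clock. They come from RefSeq (GRCm38.p6, the assembly behind mm10), are written 5′ to 3′ on the strand of the gene, and have in capitals the matches to 7 short motifs of factors active in the PSM.
In the GENCODE annotation (mm10) Efna1 spans bases 89271733 to 89281142 of chromosome 3, Epha2 bases 141301240 to 141329384 of chromosome 4 and Efnb1 bases 99136130 to 99148991 of chromosome X.
Efna1, minus strand, chr3:89279646-89279895: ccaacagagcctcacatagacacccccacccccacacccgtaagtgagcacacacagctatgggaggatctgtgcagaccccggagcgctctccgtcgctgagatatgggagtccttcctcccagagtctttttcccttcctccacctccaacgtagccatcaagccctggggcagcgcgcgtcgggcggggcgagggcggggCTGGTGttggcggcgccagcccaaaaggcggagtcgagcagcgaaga
Epha2, plus strand, chr4:141300971-141301220: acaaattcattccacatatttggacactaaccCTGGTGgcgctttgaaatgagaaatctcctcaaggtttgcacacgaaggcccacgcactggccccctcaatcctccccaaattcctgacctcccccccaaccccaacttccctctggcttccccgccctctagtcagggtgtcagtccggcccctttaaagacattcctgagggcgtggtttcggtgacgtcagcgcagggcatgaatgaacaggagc
Efnb1, plus strand, chrX:99135811-99136060: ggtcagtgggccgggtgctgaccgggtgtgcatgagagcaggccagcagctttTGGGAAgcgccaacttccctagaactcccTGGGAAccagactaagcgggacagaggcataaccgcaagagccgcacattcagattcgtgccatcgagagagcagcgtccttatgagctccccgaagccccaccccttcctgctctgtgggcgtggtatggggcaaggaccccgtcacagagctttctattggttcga

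The motifs, searched on both strands, were the RBPJ core TGGGAA, the E-box CACGTG, the class C site CACGCG, the N-box CACNAG, the T-box GGTGTGA, the TCF/LEF site CTTTGAT and the ETS site CCGGAAG. RBPJ is the DNA-binding partner of Notch, and Hes proteins bind E-box, class C and N-box sites. Efnb1 held 2 copies of the RBPJ core, at bases -197 to -192 and -168 to -163 counted from the start, and 21.6% of 32851 promoter windows of this length hold at least 1. Efna1 held 1 N-box at -47 to -42 and Epha2 held 1 at -218 to -213, a motif in 36.7% of windows. The motifs not found in these 3 windows, occur in 6.02% (E-box), 7.62% (class C), 3.33% (T-box), 3.21% (TCF/LEF) and 6.91% (ETS) of them. None of the matches overlap, and a match is a stretch of letters, not a measured binding site. The same motifs occurred in members that did not pass the rhythm test. Epha4 held 1 RBPJ core and 2 N-boxes, Epha7 an RBPJ core, and Epha1 and Efnb2 an N-box each. The windows of Epha5, Ephb2 and Ephb3 held no match. Efna3, an ephrin gene outside those chosen that passed the test, held class C sites only. Whether any motif goes with cycling was not tested. RefSeq lists a second start for Efna1, whose window lies mostly within exons annotated by GENCODE and is not shown; it holds 1 T-box match, at -14 to -8.

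Efna1 encodes ephrin-A1, a ligand of EphA2. In Ex5 Efna1 stood at 59.1 CPM at 165 min, at 101 CPM at 210 and 225 min, at 59.3 CPM at 285 min, at 94.4 CPM at 365 min and at 47.6 CPM at 425 min. In Ex4 it stood at 65.7 CPM at 155 min, at 91.3 CPM at 185 min, at 61.8 CPM at 260 min, at 103 CPM at 327 min and at 53.2 CPM at 405 min. Both courses thus held a pair of high stretches with low libraries before, between and after them, and the ranges of the experiments overlapped (47.6 to 101 CPM in Ex5, 53.2 to 103 CPM in Ex4). The fitted peak of Efna1 was 1.72 times its trough (log2 0.78 ± 0.04 SE, 32 libraries, edgeR quasi-likelihood F test with Benjamini-Hochberg adjustment, adjusted p = 7.64e-16), and it lay at -10.9 ± 1.24 min relative to Hes7, so before it. With the Hes7 cycle divided into 4 equal stretches, Efna1 averaged in the stretch around the peak of Hes7 94.6 ± 5.65 CPM in Ex5 (SD, n = 4) and 91.8 ± 2.46 CPM in Ex4 (SD, n = 3), against 59.4 ± 9.62 CPM and 63.4 ± 6.93 CPM in the stretch around the trough (SD, n = 4 each).

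Epha2 encodes a receptor with a high affinity for ephrin-A1. In Ex5 Epha2 stood at 33.3 CPM at 165 min, at 56.4 CPM at 225 min, at 26.8 CPM at 305 min and at 48.8 CPM at 385 min. In Ex4 it stood at 48.1 CPM at 155 min, at 74.3 CPM at 200 min, at 42.9 CPM at 260 min and at 66.7 CPM at 327 min. The receptor was thus high and low at about the same times as its ligand, at a lower level in Ex5 than in Ex4. Its fitted peak was 1.60 times its trough (log2 0.68 ± 0.07 SE, 32 libraries, edgeR adjusted p = 1.51e-08) and lay at -11.5 ± 2.20 min relative to Hes7. The peak of Epha2 lay -0.63 min from that of Efna1 (95% interval -5.59 to 4.32 min), so with both genes held to the Hes7 period of 135 min a shift between ligand and receptor was not detectable.

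Efnb1 encodes ephrin-B1, a transmembrane ligand. In Ex5 it stood at 45.5 CPM at 195 min, at 71.7 CPM at 255 min, at 61.0 CPM at 285 min and at 81.3 CPM at 425 min, so that a small wave rode on an upward course. In Ex4 it stood at 49.4 CPM at 170 min, at 61.9 CPM at 230 min, at 51.2 CPM at 275 min, at 62.6 CPM at 365 min and at 52.8 CPM at 405 min. The fitted wave was 1.18-fold (log2 0.24 ± 0.04 SE, 32 libraries, edgeR adjusted p = 0.000290) and peaked at 10.9 ± 3.45 min after Hes7. That is 21.8 min later than Efna1 (95% interval 14.6 to 29.0 min), with standard errors that leave out the error of the Hes7 phase and of the period. A model without slopes ended the call of Efnb1 (adjusted p = 0.0638), with a fitted wave of 0.32 log2.

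**Figure D1:**
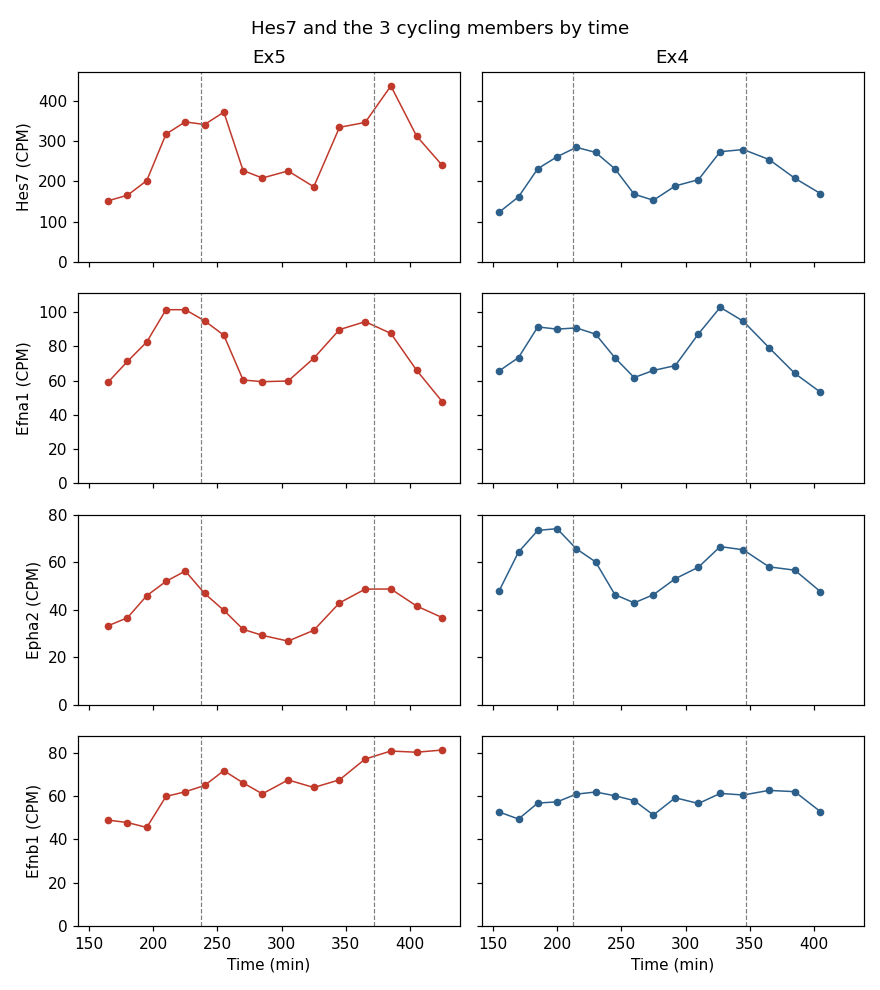
CPM of Hes7, Efna1, Epha2 and Efnb1 (rows, linear axes from 0) against labelled time in min, in Ex5 (left) and Ex4 (right); each point is 1 library and dashed lines mark the fitted Hes7 peaks at 237 and 372 min in Ex5 and at 212 and 347 min in Ex4. Efna1 and Epha2 crest near or shortly before the lines, and Efnb1 shows a smaller wave with an upward course in Ex5.

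Thus 3 of the 10 genes passed the rhythm test, against 1.32% of all genes tested. The 10 genes were chosen with earlier results of these data known, so this share is a description only. The median fold over the 10 genes was 1.12, and over all genes tested 1.05. Of the 7 that did not pass, Epha4 had a fitted fold of 1.12 (95% interval 1.06 to 1.19, adjusted p = 0.100), Epha5 of 1.20 (1.09 to 1.33, adjusted p = 0.144) and Ephb3 of 1.12 (1.05 to 1.20, adjusted p = 0.172). Epha1, an abundant receptor, had 1.02 (upper bound 1.07), Epha7 1.05 (upper bound 1.13), Efnb2 1.06 (upper bound 1.13) and Ephb2 1.10 (upper bound 1.19). Rhythms of the size seen in Efna1 and Epha2 lay outside these intervals. Epha4 passed with quadratic time (adjusted p = 0.0383) and with the period set to 120 min (0.0427), and Ephb3 passed with quadratic time (0.0166) and without the Ex5 library at 165 min (0.0467). Epha5 passed without the Ex5 library at 305 min (0.0402).

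Of the 12 ephrins and Eph receptors outside the 10, 8 passed the expression filter and 1 passed the rhythm test. This was Efna3, which encodes ephrin-A3 and cycled 1.30-fold (log2 0.38 ± 0.06 SE, 32 libraries, edgeR adjusted p = 0.000660) with a peak at 12.4 ± 3.60 min after Hes7. Its peak lay 1.46 min from that of Efnb1 (95% interval -8.31 to 11.2 min) and 23.3 min later than that of Efna1 (15.8 to 30.7 min). Efna3 lost its call with no time trend (0.33 log2, adjusted p = 0.0618) and with the period set to 180 min (0.25 log2, adjusted p = 0.139). Fitted in each experiment alone, Efna3 passed in Ex4 (1.34-fold, edgeR adjusted p = 0.00153) and not in Ex5 (1.27-fold, adjusted p = 0.573). The ligands Efna2 (1.05-fold), Efna4 (1.09-fold), Efna5 (1.05-fold) and Efnb3 (1.10-fold) and the receptors Ephb1 (1.15-fold), Ephb4 (1.05-fold) and Ephb6 (1.06-fold) did not pass.

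**Figure D2:**
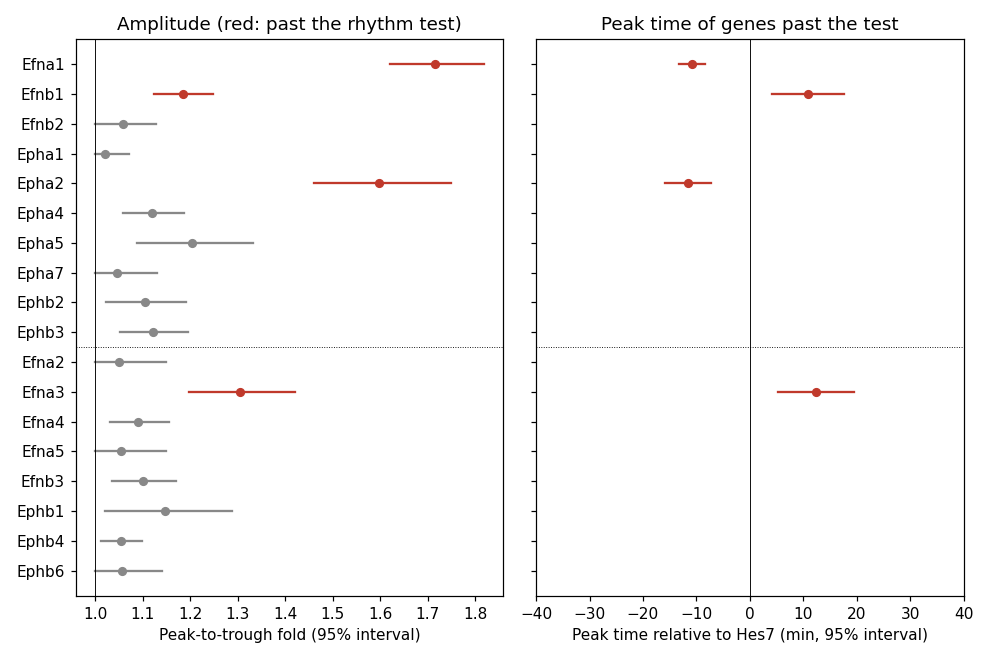
Left, fitted peak-to-trough fold with its 95% interval for the 10 genes (above the dotted line) and the 8 other family genes tested (below it), with those past the rhythm test in red; right, peak time relative to Hes7 in min with its 95% interval for the genes past the test. Efna1 and Epha2 stand at 1.72- and 1.60-fold with peaks before Hes7, and Efnb1 and Efna3 at 1.18- and 1.30-fold with peaks after it.

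Fitted in each experiment alone, with the clock of the joint fit, Efna1 cycled 1.82-fold in Ex5 and 1.62-fold in Ex4, with peaks at -11.3 ± 1.45 min and -10.3 ± 1.87 min. Epha2 cycled 1.66-fold in Ex5 and 1.55-fold in Ex4, with peaks at -9.31 ± 3.27 min and -13.5 ± 2.32 min. Both genes passed the edgeR test in each experiment (adjusted p = 1.37e-09 in Ex5 and 1.83e-07 in Ex4 for Efna1, 0.00121 in Ex5 and 1.23e-05 in Ex4 for Epha2). Efnb1 reached 1.22-fold in Ex5 and 1.16-fold in Ex4 and did not pass in either alone (adjusted p = 0.0640 in Ex5 and 0.156 in Ex4). In a test of the difference itself, 0 of the 10 genes and 0 of all genes tested (0%) differed in rhythm between the experiments by edgeR, and DESeq2 and limma-voom also gave 0. At an unadjusted p under 0.05 the differing genes were 644 (5.47%), and among the 10 these were Epha4 (p = 0.00160) and Efnb2 (p = 0.0499), both with an adjusted p of 0.859.

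Allowed a period of its own, Efna1 gave 135 min (95% interval 131 to 139 min) and Efnb1 133 min (121 to 146 min), both holding the Hes7 value. Epha2 gave 154 min (148 to 161 min), above the intervals of Hes7 (129 to 141 min) and of Efna1. The observed maxima of Epha2 in Ex5 were at 225 and 385 min and in Ex4 at 200 and 327 min. They thus lay further apart in Ex5 than in Ex4, while the period was fitted to both courses together. In Ex5 the level at 365 min (48.75 CPM) was nearly that at 385 min (48.8 CPM). With the period fixed at 180 min Epha2 kept its call, while Efna1 (adjusted p = 0.130) and Efnb1 (0.251) lost theirs. The record spans 1.93 cycles in Ex5 and 1.85 in Ex4.

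After level and linear slope were removed in each experiment, the genes most like Efna1 across the 32 libraries were Dusp4 (a phosphatase of MAP kinases, r = 0.97), Lfng (a glycosyltransferase acting on Notch, r = 0.94), Per1 (r = 0.90), Klf16 (r = 0.89) and Id2 (r = 0.86). Those most like Epha2 were Per1 (r = 0.90), Lfng (r = 0.87), Rest (r = 0.86), Dusp4 (r = 0.85) and Cdx2 (r = 0.85). Efnb1 had weaker likenesses to Acbd6 (r = 0.81), Zfpm1 (r = 0.80), Col26a1 (r = 0.80), Dab2ip (r = 0.79) and Pcbp1 (r = 0.79). Hes7 itself correlated with Efna1 at r = 0.84, with Epha2 at 0.75 and with Efnb1 at 0.75. Efna1 and Epha2 correlated at 0.82, and Efnb1 with Efna1 at 0.46 and with Epha2 at 0.32. These are descriptions over libraries that share clock times.

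The next comparison asked how levels changed over the sampled hours, as the mean of the slopes of both experiments. Of the 10 genes 2 rose and 5 fell, against 26.8% and 26.6% of all genes tested (53.3% in either direction), so most genes tested changed as well. The median slope over the 10 genes was -0.06 log2 per 100 min and over all genes tested -0.0016. Efnb1 rose by 0.14 ± 0.02 log2 per 100 min (SE, edgeR adjusted p = 6.68e-08) and Epha4 by 0.07 ± 0.02 (adjusted p = 0.00192). Ephb3, a receptor for ephrin-B ligands, changed by -0.18 ± 0.02 (adjusted p = 2.17e-08), Efnb2 by -0.18 ± 0.02 (2.72e-08) and Epha1 by -0.11 ± 0.02 (6.79e-07). Ephb2 (-0.08 ± 0.03, adjusted p = 0.0151) and Epha7 (-0.07 ± 0.03, 0.0185) fell less. Efna1 (-0.04 ± 0.02), Epha2 (-0.0013 ± 0.03) and Epha5 (0.04 ± 0.04) did not pass. Efna1 did pass with quadratic time (-0.04, edgeR adjusted p = 0.0476) and in Ex5 alone (-0.08, adjusted p = 0.0205), though not in Ex4 alone (-0.01, adjusted p = 0.905). Ephb2 lost its call without the Ex5 library at 165 min (-0.06, adjusted p = 0.0791). Epha4 lost its call with no rhythm terms (0.04, adjusted p = 0.0705), with the period set to 180 min (0.05, adjusted p = 0.0547) and in Ex5 alone (0.03, adjusted p = 0.317). In Ex4 alone Efnb1 (0.04, adjusted p = 0.276), Epha1 (-0.05, 0.131), Epha7 (-0.01, 0.904) and Ephb2 (0.01, 0.766) did not pass. Markers of other cell types changed over the same hours: Pou5f1 by -0.54, Cdh1 by -0.59, Sox2 by -0.22 and Nes by -0.10 log2 per 100 min, while Pax6 rose by 0.17 and Irx3 by 0.48. Their part in the slopes of the 10 genes was not tested.

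Slopes differed between the experiments for 5 of the 10 genes, 1 with the higher slope and 4 with the lower slope in Ex5, against 7.03% and 9.06% of all genes tested (16.1% in either direction). With a single time course per experiment, the p-values do not measure how far slopes would vary between repeat experiments. Efnb1 had a slope of 0.25 ± 0.02 log2 per 100 min in Ex5 and 0.03 ± 0.03 in Ex4 (difference 0.22 ± 0.03 SE, edgeR adjusted p = 3.05e-05). Ephb3 had -0.27 ± 0.03 in Ex5 and -0.10 ± 0.03 in Ex4 (difference -0.18 ± 0.04, adjusted p = 0.00428). Ephb2 had -0.17 ± 0.04 in Ex5 and 0.01 ± 0.04 in Ex4 (difference -0.18 ± 0.05, adjusted p = 0.0128). The fall of Ephb2 in Ex5 was not even: it stood at 156 CPM at 165 min, at 112 CPM at 225 min and at 95.9 CPM at 255 min, and then between 94.4 and 110 CPM, whereas in Ex4 all libraries lay between 114 and 137 CPM. Epha1 (difference -0.10 ± 0.03, adjusted p = 0.0211) and Epha7 (-0.15 ± 0.05, 0.0358) also had the lower slope in Ex5. Epha1 lost this call without the Ex4 library at 155 min (adjusted p = 0.0721), and for Epha7 leaving out any 1 of 10 libraries ended it (highest adjusted p = 0.135): in Ex5 those at 165, 180, 225, 240 and 385 min, and in Ex4 those at 170, 185, 327, 385 and 405 min. The slope difference of Epha4 did not pass (-0.09 ± 0.04, edgeR adjusted p = 0.0716). It did pass with quadratic time (-0.09, adjusted p = 0.0389), and without the Ex5 library at 165 min or the Ex4 library at 155 or 365 min (adjusted p between 0.00993 and 0.0408).

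**Figure D3:**
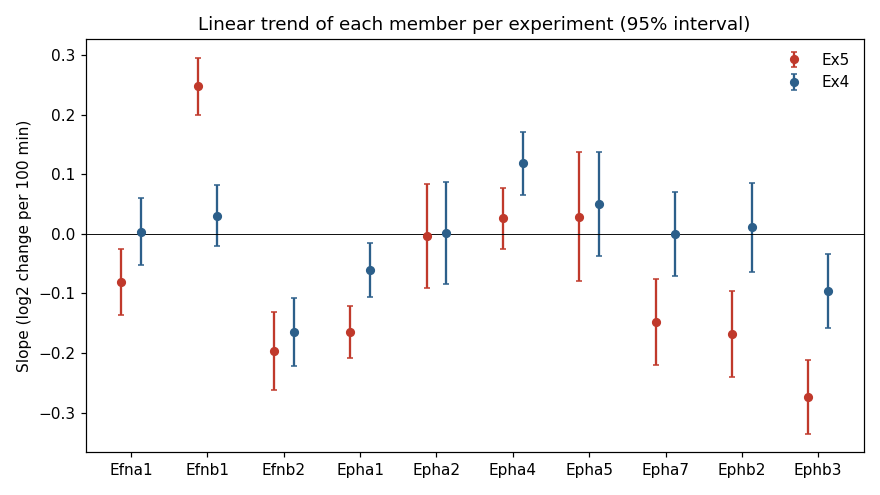
Linear slope of each of the 10 genes in log2 change per 100 min in Ex5 (left of each pair) and Ex4 (right), with 95% intervals. Efnb1 has the highest slope in Ex5 (0.25) and Ephb3 the lowest (-0.27), while Efnb2 has like slopes in both experiments (-0.20 in Ex5 and -0.16 in Ex4).

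**Figure D4:**
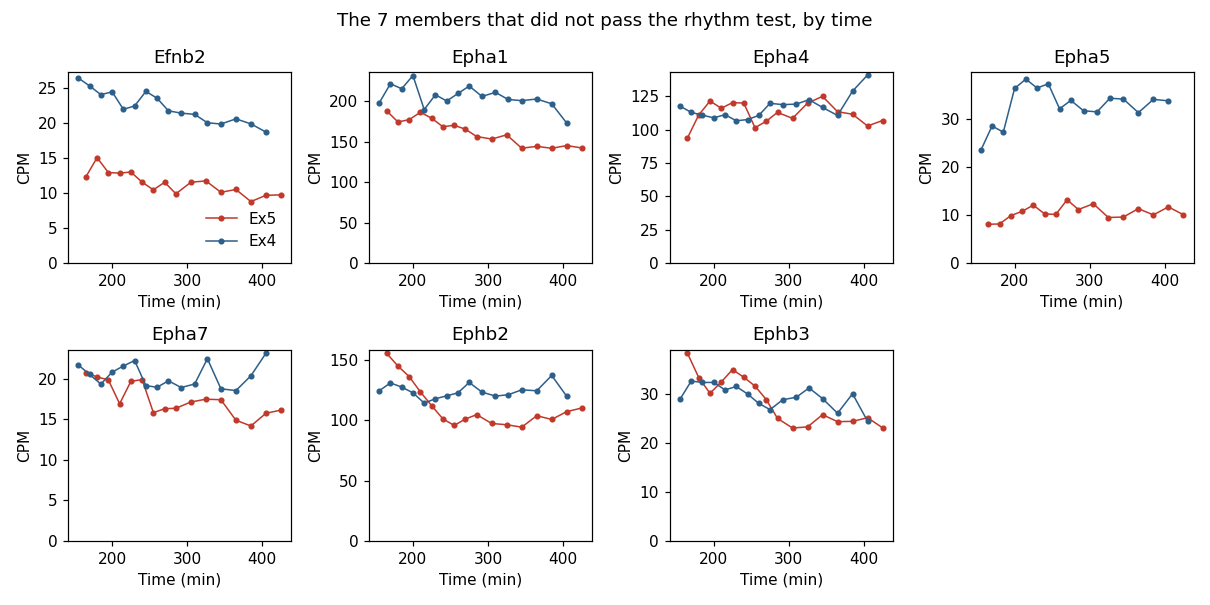
CPM against labelled time in min for the 7 genes that did not pass the rhythm test, with 1 point per library in Ex5 (red) and Ex4 (blue) and axes from 0. Efnb2 and Epha5 run at separate levels in the experiments, and Ephb2 comes down from 156 CPM over the first libraries of Ex5.

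The level at 285 min differed between the experiments for 8 of the 10 genes, 1 higher and 7 lower in Ex5, against 27.4% and 27.7% of all genes tested (55.1% in either direction). Each experiment is a single time course, so these p-values do not measure how far repeat experiments would vary. The median difference over the 10 genes was -0.20 log2 and over all genes tested -0.0021. Epha5, a receptor for ephrin-A ligands known from the nervous system, differed most. It ranged from 8.11 to 13.2 CPM in Ex5 (median 10.2 CPM) and from 23.5 to 38.4 CPM in Ex4 (median 33.9 CPM). No library of Ex5 reached the lowest of Ex4, and the fitted level in Ex5 was 0.32 times that in Ex4 (log2 -1.64 ± 0.05 SE, 32 libraries, edgeR adjusted p = 1.05e-25). Efnb2, the transmembrane ligand ephrin-B2, ranged from 8.81 to 15.1 CPM in Ex5 (median 11.6 CPM) and from 18.8 to 26.5 CPM in Ex4 (median 21.9 CPM). Its groups did not overlap either, and its level in Ex5 was 0.52 times that in Ex4 (log2 -0.95 ± 0.03 SE, adjusted p = 1.77e-24). Groups without overlap made up 3.53% of all genes tested, with Ex5 higher in 1.67% and lower in 1.86%.

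Epha2 was lower in Ex5 as well, at 0.70 times its level in Ex4 (log2 -0.51 ± 0.05 SE, edgeR adjusted p = 5.60e-12), with overlapping ranges of 26.8 to 56.4 CPM in Ex5 and 42.9 to 74.3 CPM in Ex4. Epha1 stood at 142 to 188 CPM in Ex5 and 173 to 232 CPM in Ex4 (0.79 times, adjusted p = 9.14e-15). Epha7 (0.85 times), Ephb2 (0.89 times) and Epha4 (0.95 times, adjusted p = 0.0336) were lower in Ex5 by smaller margins. Efnb1 was the member that was higher in Ex5, at 1.12 times its level in Ex4 (adjusted p = 3.86e-06). Efna1 did not pass, at 0.99 times (95% interval 0.95 to 1.03), nor did Ephb3, at 0.97 times (0.93 to 1.01). For Epha4, leaving out any 1 of 8 libraries ended the call (highest adjusted p = 0.101): in Ex5 those at 165, 255, 305, 405 and 425 min, and in Ex4 those at 155, 385 and 405 min. With quadratic time its sign turned (log2 0.02, adjusted p = 0.611), the difference of Ephb2 was -0.32 log2 against -0.16, and Ephb3 passed (-0.13, adjusted p = 0.0167).

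Markers of other cell types differed between the experiments too. Sox2, shared by neural and epiblast cells, had a median of 11.8 CPM in Ex5 (10.2 to 16.9 CPM) and 29.1 CPM in Ex4 (21.8 to 33.9 CPM), a difference of -1.16 ± 0.04 log2. Sox1, a neural marker, had medians of 1.71 CPM in Ex5 and 2.80 CPM in Ex4, while Pax6 did not pass (-0.06 log2, adjusted p = 0.238) and Irx3 and Nes were higher in Ex5 (0.45 and 0.21 log2). The summed level of all 6 neural markers was 427 to 584 CPM in Ex5 and 387 to 499 CPM in Ex4, most of it from Nes, with Neurog2 near 0. The 6 epiblast markers summed to 45.9 to 134 CPM in Ex5 and 76.3 to 184 CPM in Ex4, almost wholly from Pou5f1 and Cdh1. All 10 PSM markers differed in level as well, against 55.1% of all genes tested, with 6 higher in Ex5 (such as Msgn1, 0.78 log2) and 4 lower (such as Wnt3a, -0.33 log2). Near the filter of 1 CPM, Pax3 (-1.01 log2), Meox1 (-0.50) and Kdr (-0.65) were lower in Ex5, while Foxa2 did not pass (-0.04). The part of these cell types in the levels of Epha5, Efnb2 and the other members was not tested.

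**Figure D5:**
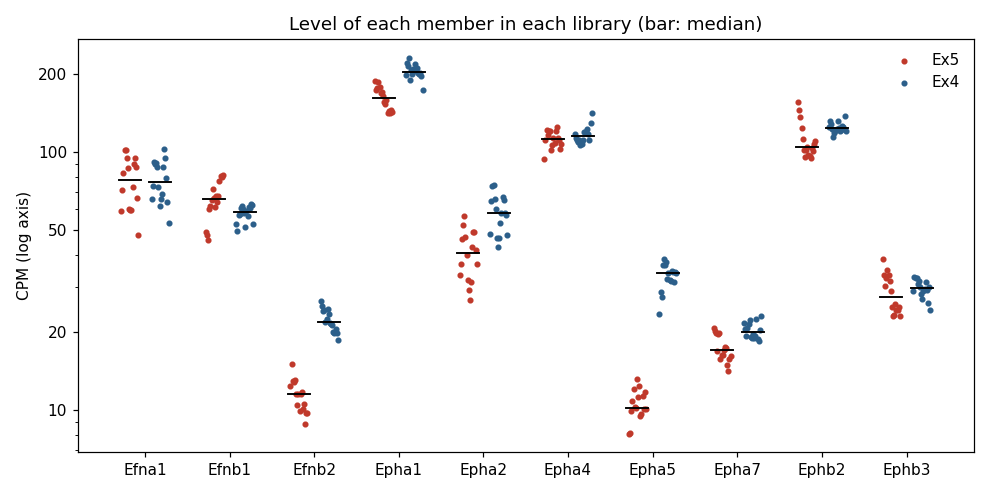
CPM of each of the 10 genes in each library on a log axis, Ex5 (red) left of Ex4 (blue), libraries in order of time within a column and medians as black bars. Epha5 and Efnb2 are the genes whose experiments do not overlap, with medians of 10.2 and 11.6 CPM in Ex5 and 33.9 and 21.9 CPM in Ex4.

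Levels of different genes were compared per length, as CPM per kb of annotated exons, by the median over 32 libraries. Epha1 stood highest of the 10 genes (47.6 CPM per kb, range 36.1 to 58.9), followed by Efna1 (41.7, range 26.0 to 56.2), and these neighbours overlapped; in Ex5 alone Efna1 (42.5) stood above Epha1 (41.2). Efnb1 (17.7), Epha4 (14.0), Epha2 (10.3) and Ephb2 (9.54) came next, with ranges that overlapped step by step, and the range of Efnb1 lay below that of Efna1. Ephb3 followed at 4.40 CPM per kb, with a range below that of Ephb2. Then came Efnb2 (2.47), Epha7 (1.95) and Epha5 (1.10), whose ranges over both experiments also overlapped step by step. The medians of Efnb2 and Epha5 lay between the ranges of their experiments. In Ex5 alone Epha7 (1.72) stood above Efnb2 (1.69), and the range of Epha7 (1.4 to 2.1) lay above that of Epha5 (0.48 to 0.79). In Ex4 alone the range of Efnb2 (2.7 to 3.9) lay above that of Epha7 (1.9 to 2.3). Of the other family genes, Ephb4, a receptor for ephrin-B2, stood above all 10 at 73.0 CPM per kb (64.1 to 79.6), and Efna4 lay between Efna1 and Efnb1 at 29.5 CPM per kb (24.5 to 33.4). Lengths count every annotated exon of a gene, which lowers the values of genes with many isoforms. Exons of Epha1 overlap those of Zyx on the opposite strand, and whether the counting used strand is not given in the sources used here.

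Genes that signal with the family were read from 2 lists, against shares over all genes tested of 1.32% for rhythm, 26.8% for rising and 26.6% for falling. Of 30 genes of forward signalling from Eph receptors 29 were tested, 0 passed the rhythm test (edgeR; median fold 1.04), 9 rose and 5 fell over time (median slope 0.01 log2 per 100 min). Kalrn, a guanine exchange factor for Rac, rose by 0.32 ± 0.03 log2 per 100 min, Inppl1, an inositol phosphatase that binds EphA2, by 0.17 ± 0.02, and Chn1, a Rac inactivator downstream of EphA4, by 0.14 ± 0.02. Rasa1, an inactivator of Ras, changed by -0.12 ± 0.02, Vav2, an exchange factor recruited by Eph receptors, by -0.10 ± 0.02 and the adaptor Nck1 by -0.09 ± 0.02. Of 13 genes of reverse signalling and shedding 11 were tested, 0 passed the rhythm test (median fold 1.05), 6 rose and 1 fell. The metalloprotease Adam19 rose by 0.34 ± 0.02, the phosphatase Ptpn13, which binds ephrin-B tails, by 0.15 ± 0.02 and the membrane protease Mmp14 by 0.10 ± 0.02, while the PDZ protein Pick1 changed by -0.08 ± 0.03. For the rhythm test of these 2 lists, unadjusted p-values under 0.05 were found for 2 of the 29 genes and 2 of the 11, against 1533 of the 11772 genes tested.

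EphA4 is known to act downstream of Mesp2 at the somite boundary of the mouse. Of 19 regulators of the boundary 12 were tested, and Mesp2, Ripply1, Ripply2, Tbx18, Uncx, Tcf15 and Pcdh8 did not reach the filter. Lfng (3.15-fold, peak at -5.05 ± 1.04 min relative to Hes7) and the transcription factor Snai1 (1.27-fold, peak at -11.9 ± 3.47 min, adjusted p = 0.000189) passed the rhythm test. These are 2 of the 12, against 1.32% of all genes tested. The list was chosen with earlier results of these data known, so this share and those over time are descriptions only. Over time 10 of the 12 rose and 1 fell, against 26.8% and 26.6% of all genes tested, with a median slope of 0.16 log2 per 100 min against -0.0016 over all genes tested. Foxc2 rose by 0.49 ± 0.05, Meox1 by 0.38 ± 0.09 and Foxc1 by 0.23 ± 0.03 log2 per 100 min, and Mesp1 changed by -0.17 ± 0.06. Meox1, Foxc2 and Mesp1 averaged only 1.70, 3.05 and 3.28 CPM, near the filter of 1 CPM, while Foxc1 averaged 52.7 CPM.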

How the data were processed

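Polyadenylated RNA was sequenced in 32 libraries. The values are the authors' raw counts of reads for each gene symbol, as deposited. Per the submitters' processing notes, the tools were HTSeq 0.6.1, HISAT2 2.1.0, cutadapt 1.14 and bcl2fastq 2.17.1.14, with build mm10. Which annotation and strand setting were used is not given in the sources used here. Columns match the sample descriptions 1 to 1, 0 columns were left unused and 0 pairs of libraries were identical.

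Counts were filtered (1 CPM in at least 16 libraries, 11772 of 21886 genes) and scaled with TMM factors. Log2 CPM of Hes7 (prior count 0.5) gave the clock, by a least-squares cosine with 1 common period and, for each experiment, its own amplitude, peak time, slope and level; the period was searched from 90 to 240 min. All genes were fitted with edgeR 4.0.16 (R 4.3.3) by quasi-likelihood, with an intercept and a slope of time per experiment, centred at 285 min, and cosine and sine of the Hes7 phase. Tests covered rhythm (both terms), the mean slope, the difference in level and slope (Ex5 minus Ex4) and the interaction of rhythm with experiment, with Benjamini-Hochberg adjustment over all genes at 0.05. Standard errors come from the fitted covariance, and 95% intervals are 1.96 standard errors to each side. The procedure was tested on simulated data. The simulated libraries were independent and the Hes7 phase was given, so non-linear drift and errors of the clock were not covered. DESeq2 1.42.0, limma-voom (limma 3.58.1), other scaling, filters, time models and periods, single experiments and fits lacking 1 library were alternatives. Positions and exon lengths come from GENCODE M21 (99.7% of symbols matched) and promoters from RefSeq.

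The members, lists and tests were chosen with earlier results of these data known. All 10 members are named, as are the tested genes of the rest of the family, list genes past a test (up to 5 by amplitude for rhythm, up to 3 rising and 3 falling by slope) and the 5 genes most like each cycling member.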

Additional observations from a re-analysis of the deposited data

Results flagged for a closer look

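The slopes of 5 of the 10 genes differed between the experiments by the test of the difference itself (edgeR quasi-likelihood, Ex5 minus Ex4, log2 per 100 min, 32 libraries, adjusted over all genes). The difference was 0.22 for Efnb1, -0.10 for Epha1, -0.15 for Epha7, -0.18 for Ephb2 and -0.18 for Ephb3. Efnb1, Epha1, Epha7 and Ephb2 passed the test of slope in Ex5 alone and did not in Ex4 alone, while Ephb3 fell in both, by more in Ex5 (-0.29 in Ex5 and -0.08 in Ex4). Across all genes tested 16.1% had such a difference. Of the 10 PSM markers 5 had a lower slope in Ex5 and 0 a higher one, among them Msgn1 (-0.28), Wnt3a (-0.22) and T (-0.20). Of the 2 epiblast markers tested Cdh1 had a lower slope in Ex5 (-0.17) and Pou5f1 did not pass (0.03, adjusted p = 0.739), and of 5 neural markers 0 passed. The part of these cell types in the slopes was not tested.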

How the results depend on the processing

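The rhythm calls depended on the model of time: 3 of the 10 genes passed, against 5 with quadratic time and 1 (Epha2) with a period of 180 min, and 155 of all genes passed, against 62 with no time trend, 48 in Ex5 alone and 39 in Ex4 alone. Rhythm differences were found for 0 of all genes, against 2 with no filter and 3 at 180 min. For trend, 2 of the 10 genes rose, against 1 at 180 min, with no rhythm terms, in Ex5 alone and in Ex4 alone. In Ex4 alone 3 of the 10 passed and 2 fell, against 7 and 5, and 3715 of all genes passed, against 6280. Slope differences numbered 1894 of all genes, against 3081 with quadratic time. Signs turned for the level of Epha4 with quadratic time (0.0242) and for the slopes of Ephb2 (0.0103) and Efna3 (0.00145) in Ex4 alone; the cause was not tested, though fits of 1 experiment use fewer libraries. Without any 1 library, 3 to 4 of the 10 passed for rhythm, 6 to 7 for trend, 7 to 8 for level and 4 to 6 for slope differences. With the time point number as a replicate block, 7 of the 10 passed the level test (8 without it), the call of Epha4 being lost (-0.06, adjusted p = 0.205). Same-numbered libraries correlated above 0.1 in 14 of 16 pairs (0.0479 to 0.544), and 3 of the 16 Ex5 libraries were most like their own number, so the numbers were not taken to pair the libraries. Genes at a few CPM, such as Ephb1, have wider errors.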

Other observations

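Of the 12 family genes outside the 10, 4 receptors stayed under 1 CPM in every library and were not tested. Epha3 had a median of 0.192 CPM in Ex5 and 0.325 CPM in Ex4, Epha8 of 0.353 and 0.208 CPM, Epha10 of 0.239 and 0.226 CPM, and Epha6 of 0.0438 and 0.0466 CPM, in the same order of experiments. Their counts are too low to judge a rhythm or a trend.

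Among the 8 that were tested, 4 were higher in Ex5 and 1 lower (edgeR, adjusted p under 0.05), against 27.4% and 27.7% of all genes tested. Ephb1, an EphB receptor, ranged from 5.81 to 8.59 CPM in Ex5 and from 4.21 to 6.99 CPM in Ex4 (1.35 times, adjusted p = 2.31e-08). The level in Ex5 differed from that in Ex4 by 0.19 log2 for Efna3, 0.11 for Efnb3, 0.07 for Ephb4 and -0.14 for Efna4. With quadratic time the difference of Efna3 was 0.01 (adjusted p = 0.871). Over time Ephb4 rose by 0.05 ± 0.01 and Efna4 by 0.05 ± 0.02 log2 per 100 min, while Efnb3 changed by -0.09 ± 0.02 and Efna3 by -0.08 ± 0.03. Efna3 lost this call without any 1 of 4 libraries (in Ex5 those at 165 and 325 min, in Ex4 those at 385 and 405 min), with the largest move without the Ex5 library at 165 min (-0.04, adjusted p = 0.202). It also lost it with periods of 120, 150 and 180 min (adjusted p = 0.139, 0.0631 and 0.396) and with no rhythm terms (-0.03, adjusted p = 0.486). Its slope difference between experiments (-0.15, adjusted p = 0.0604) passed with quadratic time (-0.18, adjusted p = 0.00183) and without the Ex5 library at 270, 405 or 425 min or the Ex4 library at 405 min (adjusted p between 0.00766 and 0.0491). The slope of Efnb3 differed between the experiments (-0.18 in Ex5 and -0.00018 in Ex4, adjusted p of the difference 0.00192).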
